A study of Mus musculus with 6 samples.

Results

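Glo1 encodes glyoxalase 1, the enzyme that converts the adduct of methylglyoxal with glutathione. Glo1 was examined in mouse liver together with 5 other genes. Btbd9 and Zfand3 lie beside it on chromosome 17, and Hagh, Park7 and Akr1b3 act in the clearance of methylglyoxal. The group was selected on an earlier look at this same comparison, in which Glo1 and Btbd9 stood out by their difference between the substrains, and the rest were added for their place or their function. Probe sets were taken by gene symbol from the platform annotation. Of the 6 genes, 5 had a probe set, 1 each, among 22180 genes with a probe set of a single symbol. Akr1b3, aldose reductase, had no listed probe set and was not analysed here.

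Total RNA from liver was measured on Affymetrix whole-transcript arrays in 3 Balb/cBy mice and 3 Balb/c mice. The sample titles call the Balb/cBy mice KD and the Balb/c mice WT. All 6 were males of 20 weeks, housed singly in a conventional facility, put at 8 weeks of age on a diet in which fat supplied 58% of the energy, and kept on it for 12 weeks. Which gene KD refers to is not stated in the labels. Mice of the BALB/cBy line are known for a natural deletion in Acads, the short-chain acyl-CoA dehydrogenase gene, and are bred apart from other BALB/c lines, so the groups are 2 substrains and not littermates.

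Methylglyoxal is a reactive dicarbonyl that forms mainly from the triose phosphates of glycolysis and attacks proteins and DNA. Glyoxalase 1 turns its adduct with glutathione into S-D-lactoylglutathione, and glyoxalase 2, encoded by Hagh, hydrolyses that product to D-lactate and sets glutathione free again. Park7 encodes DJ-1, a redox-sensitive protein for which a glutathione-independent glyoxalase activity has been described, and aldose reductase can reduce methylglyoxal. Btbd9 encodes a BTB domain protein whose human counterpart is known from genetic studies of restless legs syndrome, and Zfand3 encodes an AN1-type zinc finger protein. The number of Glo1 gene copies is known to vary among inbred mouse strains, whereas these arrays measured RNA.

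The start regions of the genes for both glyoxalases and for DJ-1 are shown because these are the enzymes of the metabolite itself, of which Glo1 alone had groups that did not overlap. Each window runs from 250 bases before to 50 bases after an annotated start, in RefSeq's sequence of the build GRCm38.p6, which is that of C57BL/6J and not of either Balb substrain. Capitals mark the CCAAT box (CCAAT), the GC box (GGGCGG) and the core of the antioxidant response element (TGACNNNGC), searched on both strands.
Glo1 (chr17:30612610-30612909, minus strand): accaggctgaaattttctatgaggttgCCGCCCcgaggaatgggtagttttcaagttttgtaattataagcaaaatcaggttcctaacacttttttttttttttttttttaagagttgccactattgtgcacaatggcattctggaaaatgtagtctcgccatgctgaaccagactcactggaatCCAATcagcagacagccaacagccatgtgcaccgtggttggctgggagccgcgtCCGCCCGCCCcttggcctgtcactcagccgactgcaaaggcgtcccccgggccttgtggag
Hagh (chr17:24850240-24850539, plus strand): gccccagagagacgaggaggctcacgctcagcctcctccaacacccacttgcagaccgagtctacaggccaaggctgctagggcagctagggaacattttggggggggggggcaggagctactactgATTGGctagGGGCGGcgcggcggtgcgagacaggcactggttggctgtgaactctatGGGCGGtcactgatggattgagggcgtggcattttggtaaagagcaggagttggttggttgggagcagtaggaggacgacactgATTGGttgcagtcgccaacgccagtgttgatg
Park7 (chr4:150909872-150910171, minus strand): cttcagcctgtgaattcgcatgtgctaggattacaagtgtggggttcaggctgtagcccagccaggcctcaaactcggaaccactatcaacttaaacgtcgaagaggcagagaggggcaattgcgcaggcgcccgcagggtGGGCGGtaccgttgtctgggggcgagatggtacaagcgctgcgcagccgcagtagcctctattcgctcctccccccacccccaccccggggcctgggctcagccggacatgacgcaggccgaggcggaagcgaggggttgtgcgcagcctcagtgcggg

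The Glo1 window held 1 CCAAT box, which began 65 bases before the start, and 3 GC boxes on the opposite strand, which began 223, 11 and 7 bases before it. The last 2 of these GC boxes overlap each other. The Hagh window held 2 CCAAT boxes on the opposite strand and 2 GC boxes, and a second annotated Hagh start, not printed, held 1 of each and 1 antioxidant response element core. Park7 held 1 GC box, as did the window of Zfand3. Of 32851 windows of this length, 37.41% held a CCAAT box, 35.66% a GC box and 12.39% the antioxidant response element core. These letters occur in many promoters, and a match is a description of the window. Btbd9 and Akr1b3 had no entry.

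Glo1 was higher in Balb/cBy livers on every array. All values are log2 signals after RMA (a method that corrects background, normalizes the arrays and summarises the probes of a probe set), so a difference of 1 is a doubling. The log2 signal of Glo1 was 11.81, 11.82 and 11.87 in Balb/cBy livers, against 11.02, 10.64 and 11.47 in Balb/c livers. The 3 Balb/cBy livers lay close together, the Balb/c livers were spread widely, and the lowest Balb/cBy array stood 0.34 above the highest Balb/c array. The means were 11.83 ± 0.03 in Balb/cBy and 11.04 ± 0.42 in Balb/c (SD, n = 3 each). The difference, Balb/cBy minus Balb/c, was 0.79 ± 0.19 (SE), with a 95% interval of 0.36 to 1.22, which corresponds to 1.73 times the Balb/c level.

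Btbd9, whose gene is next to Glo1, was higher in Balb/cBy by a similar amount. Its log2 signal was 9.17, 9.61 and 9.36 in Balb/cBy livers and 8.73, 8.59 and 8.83 in Balb/c livers. The groups did not overlap, with a gap of 0.35 between the nearest arrays, and here the spread was the wider one in Balb/cBy. Its means were 9.38 ± 0.22 in Balb/cBy and 8.71 ± 0.12 in Balb/c (SD, n = 3 each). That gave a difference of 0.66 ± 0.13 (SE, 95% interval 0.37 to 0.96), or 1.59 times the Balb/c level. The intervals of Glo1 and Btbd9 overlap over most of their length. Within Balb/c, replicate 3 was the highest and replicate 2 the lowest for both genes.

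Zfand3, on the far side of Btbd9, showed no such separation. Its log2 signal was 11.06, 11.35 and 11.27 in Balb/cBy livers, against 11.16, 11.02 and 11.18 in Balb/c livers, and the groups overlapped. The difference was 0.11 ± 0.11 (SE, 95% interval -0.14 to 0.36). An increase of the size fitted for Glo1 or Btbd9 lies outside this interval.

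**Figure D1:**
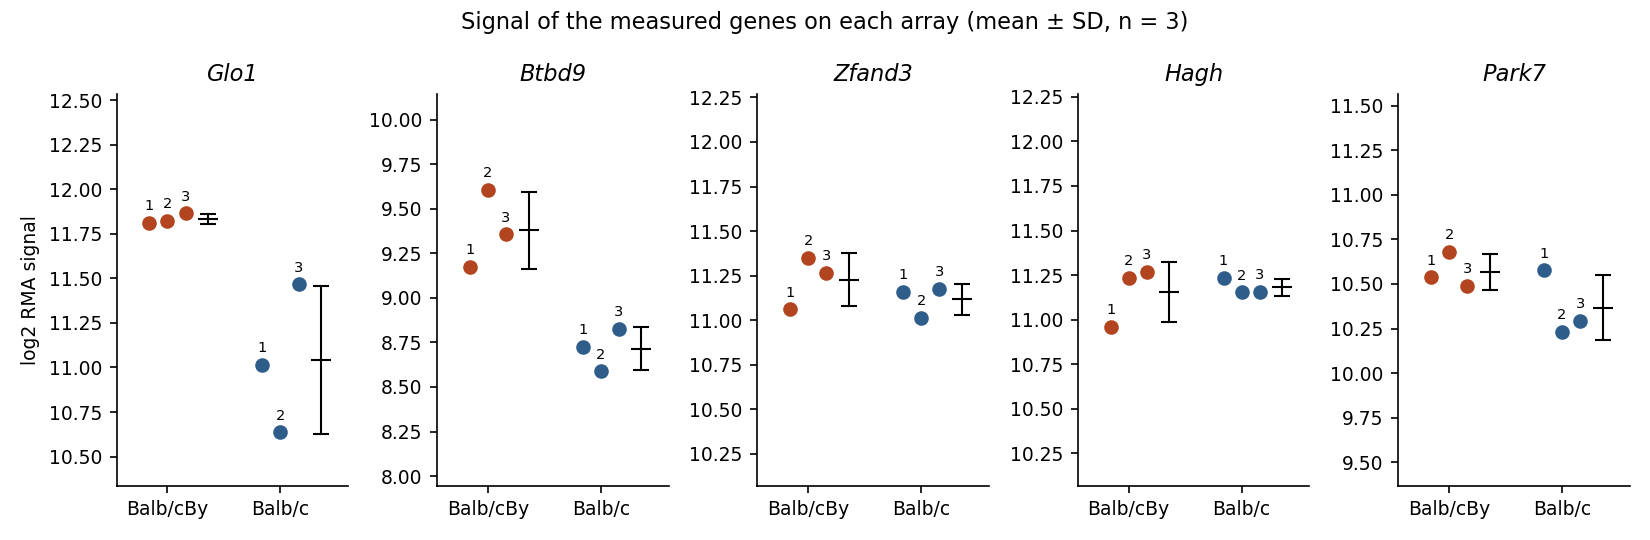
Log2 RMA signal (y axis) of the 5 measured genes in Balb/cBy (left, orange) and Balb/c (right, blue) livers, with each array as a point numbered by replicate and the mean ± SD (n = 3) as a bar beside it; every panel spans the same number of log2 units. For Glo1 and Btbd9 all 3 Balb/cBy points lie above all 3 Balb/c points, while for Zfand3, Hagh and Park7 the groups overlap.

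The genes that act on methylglyoxal after or beside Glo1 had overlapping groups. Hagh, the glyoxalase 2 gene, read 10.96, 11.24 and 11.27 in Balb/cBy livers and 11.24, 11.15 and 11.16 in Balb/c livers on the log2 scale. Balb/cBy replicate 1 was the lowest of all, and the others lay within a narrow band. The difference of Hagh was -0.03 ± 0.11 (SE, 95% interval -0.28 to 0.22). Park7 read 10.54, 10.68 and 10.49 in Balb/cBy livers, against 10.58, 10.23 and 10.29 in Balb/c livers. Balb/c replicate 1 lay among the Balb/cBy arrays and the other Balb/c arrays lay below them. Its difference was 0.20 ± 0.12 (SE, 95% interval -0.07 to 0.47), so a modest increase is within the interval and an increase as large as that fitted for Glo1 is not.

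These 5 genes were picked with results of this same comparison known, so their values are a description and no test of them is given. Across the whole table, limma's moderated test with Benjamini-Hochberg adjustment called 0 of 23521 probe sets at an adjusted p of 0.05 (0%). An unadjusted p under 0.05 was found in 899 (3.82%). Every Balb/cBy array lay above every Balb/c array in 2 of the 5 member probe sets and in 4.42% of all probe sets. A difference at least as large as that of Glo1 was found in 68 probe sets (0.289%), and one at least as large as that of Btbd9 in 103 (0.438%). The Balb/cBy mean was the higher one in 4 of the 5 members and the lower one in 1, as it was in 49% and 51% of all probe sets. Nothing is read from these shares about the members, since the same differences led to the choice.

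Of the 18 other protein-coding genes among the 10 on each side of Glo1 in RefSeq's gene order, 17 were measured. In 7 the Balb/cBy mean was higher and in 10 it was lower, with a median difference of -0.03 beside -0.0031 over all probe sets. With limma, 0 of the 17 passed an adjusted p of 0.05, as did 0% of all probe sets, so this count says nothing particular about the neighbours. In 1 of the 17, Pim1, the unadjusted p was under 0.05, as it was in 3.82% of all probe sets.

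On the far side of Glo1 from Btbd9, the next gene is Dnah8, a dynein heavy chain of cilia and flagella. Dnah8 read 7.26, 7.26 and 7.24 in Balb/cBy livers and 7.33, 7.27 and 7.36 in Balb/c livers. These groups did not overlap either, but in the other direction and by a small amount, with a difference of -0.07 ± 0.08 (SE, 95% interval -0.26 to 0.13). Its mean lay under 8.02, the 95th percentile of the mean log2 signals of 1105 olfactory receptor genes, which served as a stand-in for background. At that level a difference may not be detectable. Glp1r, the receptor of glucagon-like peptide 1, read 7.97, 7.99 and 8.03 in Balb/cBy livers, against 8.07, 8.23 and 8.09 in Balb/c livers. Glp1r thus lay around that level, and its difference was -0.13 ± 0.09 (SE), or -0.080 without Balb/c replicate 2.

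Further out on that side, Umodl1, a gene related to uromodulin, differed by -0.15 ± 0.09, the sterol exporter gene Abcg1 by -0.06 ± 0.17 and the trefoil factor gene Tff3 by -0.03 ± 0.09 (SE). On the side of Zfand3, Mdga1, a cell adhesion gene, differed by 0.01 ± 0.11, and Ccdc167 by 0.08 ± 0.09 (SE). Cmtr1, an mRNA cap methyltransferase, shares its listed probe set with another symbol and was left out. Of the more distant neighbours the smallest p-values belonged to Pim1 and Rsph1. Pim1, a serine/threonine kinase, read 8.60, 8.56 and 9.10 in Balb/cBy livers and 9.13, 9.26 and 9.46 in Balb/c livers. All Balb/cBy arrays were lower, with a difference of -0.53 ± 0.16 (SE) and a limma adjusted p of 0.999, while a second, dimmer probe set of Pim1 differed by -0.08 ± 0.13 (SE). Rsph1, a radial spoke protein of cilia, differed by -0.17 ± 0.11 (SE), with -0.11 without Balb/c replicate 2 and -0.27 without Balb/c replicate 3. The mean of Rsph1, 7.96, lay under the olfactory receptor level. Balb/cBy lay wholly below Balb/c in 4 of the 17 neighbours (23.5%, Pim1, Dnah8, Glp1r and Umodl1), beside 3.53% of all probe sets. Of these 4, Dnah8 had a mean under the olfactory receptor level, and Glp1r at 8.06 and Umodl1 at 8.07 lay close to it.

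2 transcripts without a known protein product in the same stretch had probe sets of their own. Gm6402, a transcribed pseudogene within the span of Btbd9, read 6.92, 7.28 and 6.78 in Balb/cBy livers and 6.61, 6.70 and 6.99 in Balb/c livers, with overlapping groups and a mean under the olfactory receptor level. The long noncoding RNA 1700097N02Rik, between Glo1 and Dnah8, read 8.50, 8.46 and 8.49 in Balb/cBy livers, against 8.58, 8.39 and 8.55 in Balb/c livers. Its difference was -0.02 ± 0.09 (SE, 95% interval -0.24 to 0.19), and its groups overlapped. RefSeq also lists a Glo1 pseudogene, Glo1-ps, on chromosome 2; whether its RNA reaches the Glo1 probes was not tested.

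**Figure D2:**
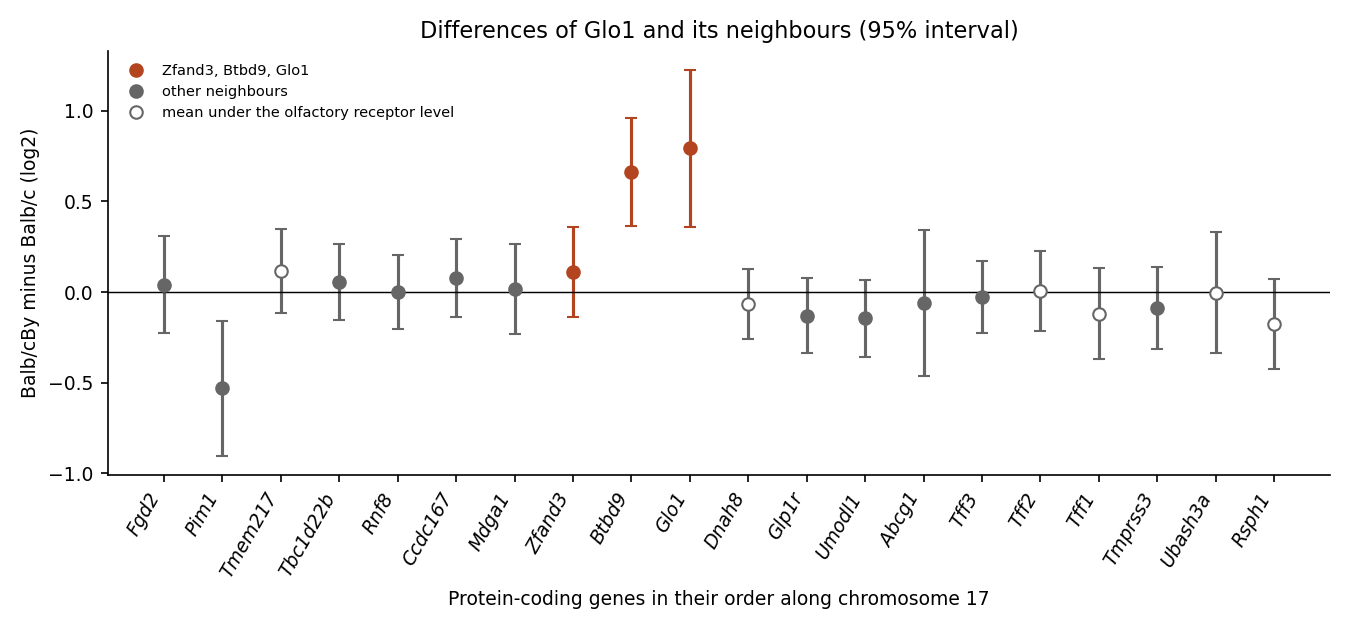
Difference in log2 signal, Balb/cBy minus Balb/c (y axis, points with 95% intervals from limma), of the measured protein-coding genes around Glo1 in their order along chromosome 17 (x axis, distances not drawn). Btbd9 at 0.66 and Glo1 at 0.79 stand above the rest, the genes on either side of this pair lie near 0, and Pim1 is the lowest at -0.53; open points have a mean signal under the olfactory receptor level.

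Other genes of methylglyoxal metabolism were split between both directions. Of 42 such genes in 4 lists, which hold none of the 6 genes above, 35 were measured; 19 had a higher and 16 a lower mean in Balb/cBy, with a median difference of 0.04 beside -0.0031 over all probe sets. With limma, 0 of the 35 passed an adjusted p of 0.05 in either direction, as did 0% of all probe sets. Tpi1 and Prkcsh, 2 of the 35 (5.71%), had an unadjusted p under 0.05, a share near the 3.82% of all probe sets, so nothing particular to the lists is read from it.

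Among enzymes that clear dicarbonyls and their products, 13 of 15 were measured, 6 with a higher and 7 with a lower mean in Balb/cBy (median -0.03). Aldh3a2, a fatty aldehyde dehydrogenase, differed by -0.32 ± 0.19 (SE), a value that was -0.17 without Balb/cBy replicate 1 and -0.51 without Balb/cBy replicate 2. Averaged over its 2 probe sets, Aldh3a2 differed by -0.23. Ldhd, the D-lactate dehydrogenase that oxidises the end product of the glyoxalase route, read 11.79, 11.61 and 11.59 in Balb/cBy livers and 11.47, 11.72 and 11.09 in Balb/c livers. Balb/c replicate 2 lay within the Balb/cBy range, and the difference was 0.23 ± 0.16 (SE). It was 0.063 without Balb/c replicate 3 and 0.38 without Balb/c replicate 2. Akr1a1, an aldehyde reductase that acts on methylglyoxal, differed by 0.14 ± 0.11, and the mitochondrial aldehyde dehydrogenase gene Aldh2 by -0.13 ± 0.10 (SE). Single arrays moved these as well: Akr1a1 was 0.074 without Balb/c replicate 2 and 0.085 without Balb/cBy replicate 2, and Aldh2 was -0.20 without Balb/cBy replicate 3. Averaged over its 2 probe sets, Aldh2 differed by -0.09. None of these 4 passed.

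Glutathione is the partner of methylglyoxal in the Glo1 reaction, and 9 of 10 genes of its supply were measured, 3 with a higher and 6 with a lower mean (median -0.0019). Gss, glutathione synthetase, read 9.70, 9.995 and 9.86 in Balb/cBy livers, against 9.73, 9.57 and 9.57 in Balb/c livers. The groups met at 1 array each, and the difference was 0.23 ± 0.11 (SE). Both subunits of glutamate-cysteine ligase, which makes the first step, had a lower mean in Balb/cBy: Gclm differed by -0.24 ± 0.12 and Gclc by -0.27 ± 0.17 (SE). Both differences leaned on Balb/c replicate 3, without which Gclm differed by -0.13 and Gclc by -0.064. Gclc was highest on that array, at 12.15. Gclc read 11.47, 11.60 and 11.35 in Balb/cBy livers, against 11.54 and 11.53 in the remaining Balb/c livers. The 5-oxoprolinase gene Oplah differed by 0.08 ± 0.14 (SE).

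Of genes whose enzymes handle the sources of methylglyoxal, 6 of 10 were measured, 3 with a higher and 3 with a lower mean (median -0.01). Tpi1, triosephosphate isomerase, read 12.58, 12.69 and 12.63 in Balb/cBy livers and 12.57, 12.21 and 12.33 in Balb/c livers. The groups were parted by a very small gap, and the difference was 0.26 ± 0.11 (SE, limma adjusted p = 0.999). Aoc3, an amine oxidase, differed by -0.16 ± 0.10, the fructokinase gene Khk by -0.12 ± 0.13 and Gapdh by 0.07 ± 0.10 (SE). The mean of Aoc3, 7.78, lay under the olfactory receptor level. With Balb/c replicate 1 left out Khk was -0.0022, with Balb/cBy replicate 1 left out -0.030 and with Balb/c replicate 3 left out -0.19, and Aoc3 was -0.073 without Balb/cBy replicate 1. Averaged over its 3 own probe sets, Gapdh differed by 0.008. Gapdh also has 8 probe sets that it shares with other symbols, and its copies in the genome make its signal uncertain.

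All 7 genes that bind or repair glycated proteins were measured, and all 7 had a higher mean in Balb/cBy by small amounts (median 0.07), as had 49% of all probe sets. Prkcsh, the glucosidase II subunit that also binds glycated proteins, read 10.60, 10.80 and 10.67 in Balb/cBy livers, against 10.42, 10.26 and 10.44 in Balb/c livers. Its groups did not overlap, and the difference was 0.32 ± 0.10 (SE, limma adjusted p = 0.999). Ddost, an oligosaccharyltransferase subunit known as a receptor of glycated proteins, differed by 0.16 ± 0.15 (SE), but by 0.0003 without Balb/c replicate 3 and by 0.28 without Balb/c replicate 1. The scavenger receptor gene Msr1 differed by 0.08 ± 0.11 and Ager, the receptor for advanced glycation end products, by 0.07 ± 0.10 (SE). None of the 7 passed.

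**Figure D3:**
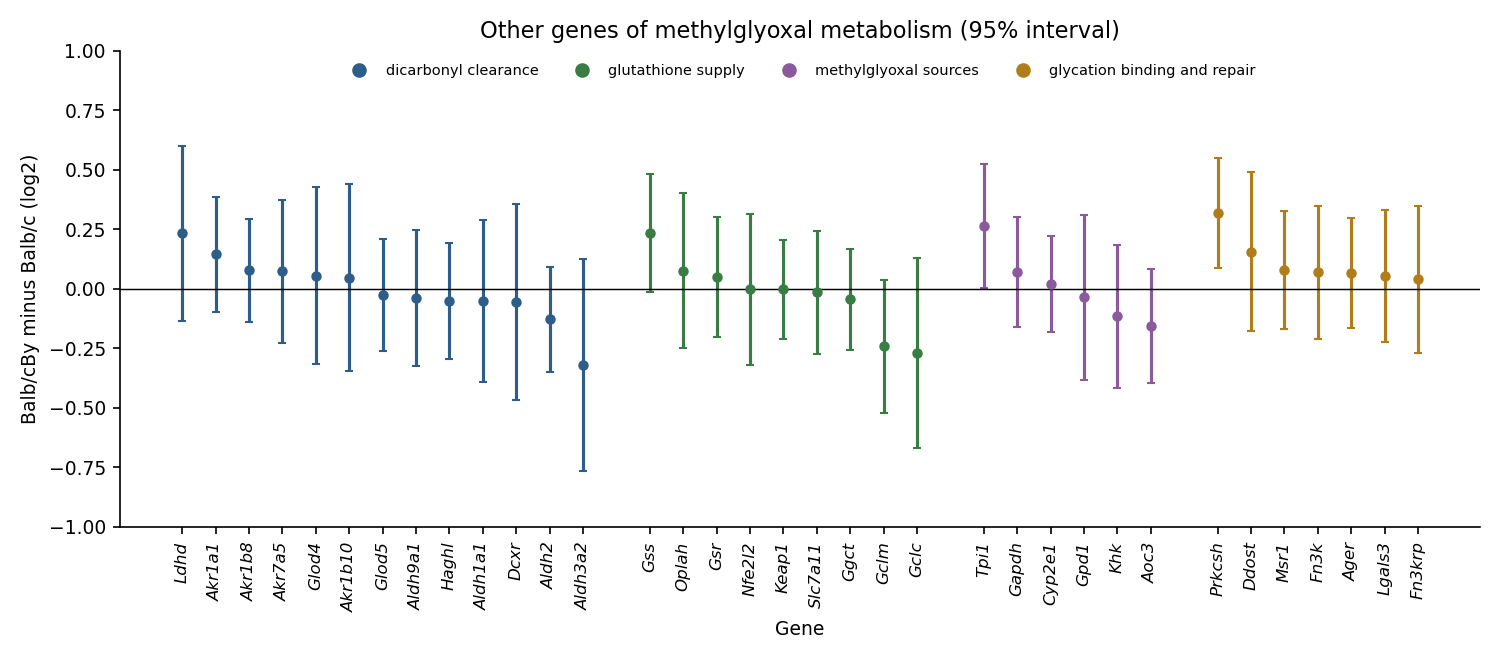
Difference in log2 signal, Balb/cBy minus Balb/c (y axis, points with 95% intervals from limma), of 35 measured genes of methylglyoxal metabolism, coloured by list and sorted within it. The differences run from -0.32 for Aldh3a2 to 0.32 for Prkcsh, all smaller in size than those of Glo1 and Btbd9. The value of Aldh3a2 is that of its probe set of highest mean and moved with single arrays.

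The genes whose values ran most like those of Glo1 over the 6 arrays were sought among 2834 genes whose SD over the arrays was at least 0.5 times that of Glo1. The measure was Pearson's r of the log2 signals over 6 arrays, given as a description. The highest were Sec11a (r = 0.964), a catalytic subunit of the signal peptidase, Kyat3 (r = 0.958), a kynurenine aminotransferase, and Pisd-ps1 (r = 0.952), a phosphatidylserine decarboxylase pseudogene. Oas1g (r = 0.95), an interferon-induced oligoadenylate synthetase family gene, and Hspa13 (r = 0.944), an Hsp70 family chaperone of the endoplasmic reticulum, followed. Each of these 5 had groups that did not overlap, where 4.42% of all probe sets had every Balb/cBy array above every Balb/c array. As for Glo1, Balb/c replicate 2 was the lowest and Balb/c replicate 3 the highest of its group. The 5 were chosen by r over these same arrays, so this shared pattern follows in large part from the choice. Sec11a differed by 0.42 ± 0.12 and Kyat3 by 1.01 ± 0.17 (SE), and the mean of Oas1g lay under the olfactory receptor level. Btbd9, with r = 0.885, was in place 36. All of these arrays share the contrast between the substrains, so a gene that is clearly higher in Balb/cBy tends to have a high r as well.

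**Figure D4:**
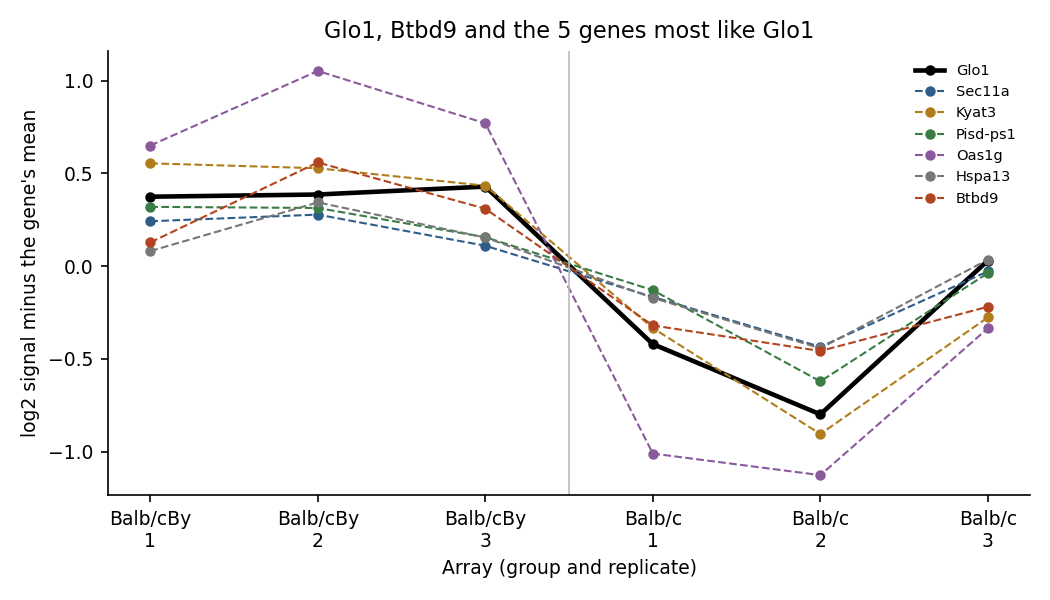
Log2 signal of each array minus the gene's own mean over 6 arrays (y axis) for Glo1 (thick line), the 5 genes most like it and Btbd9, with the Balb/cBy arrays on the left and the Balb/c arrays on the right; lines join the values of 1 gene and carry no order. Every gene shown is higher on the 3 Balb/cBy arrays, and Balb/c replicate 2 is the lowest array for each.

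The arrays were alike in signal across genes, with Pearson correlations of 0.977 to 0.990 within groups and 0.977 to 0.991 between groups. Acads was lower in Balb/cBy, at 10.60, 10.79 and 10.93 against 11.53, 11.46 and 11.28 in Balb/c, where the groups did not overlap. Of 8 hepatocyte markers 7 were measured, from Hnf4a at 11.76 to Alb at 14.18, and the mean of the list was 13.39 to 13.46 on the Balb/cBy arrays and 13.36 to 13.47 on the Balb/c arrays. Balb/c replicate 3, the Balb/c array with the highest Glo1, had the lowest mean of 7 Kupffer cell and macrophage markers, 9.25, where the Balb/cBy arrays had 9.48 to 9.88 and the remaining Balb/c arrays 9.83 and 9.97. These markers ran from Marco at 7.80 to Vsig4 at 11.08. Of 8 stellate cell markers, from Lum at 8.18 to Dcn at 12.06, 7 had a higher mean in Balb/cBy (87.5%, beside 49% of all probe sets), and 2 lay wholly above Balb/c (25%, beside 4.42%). These were Lum, a matrix proteoglycan, with a difference of 0.53 ± 0.12, and Dcn, decorin, with 0.48 ± 0.14 (SE). Their limma adjusted p-values were 0.586 and 0.999. Reln differed by 0.36 ± 0.21, Lrat by 0.23 ± 0.20 and Pdgfrb by 0.13 ± 0.11 (SE). Des at 0.02 ± 0.11, Col1a1 at 0.005 ± 0.12 and Col3a1 at -0.03 ± 0.12 (SE) hardly differed, so the share of higher means is no list-wide rise. The list mean was 9.45 to 9.72 in Balb/cBy and 9.23 to 9.53 in Balb/c. The endothelial list, from Pecam1 at 9.01 to Clec4g at 11.83, had means of 9.80 to 10.14 in Balb/cBy and 9.83 to 9.94 in Balb/c. The cholangiocyte list (Epcam at 6.98 to Sox9 at 8.58), the lymphocyte list (Ms4a1 at 6.19 to Cd3e at 8.38), the neutrophil list (Ly6g at 6.06 to S100a9 at 8.75) and the pancreas list (Amy2b at 4.38 to Cela1 at 8.996) lay mostly around or under the olfactory receptor level, and no erythroid marker had a probe set of its own. Balb/cBy lay wholly above Balb/c in the neutrophil markers S100a8 and Retnlg (40%, beside 4.42% of all probe sets). Of the 5 neutrophil markers, 3 had a higher and 2 a lower mean in Balb/cBy. Ly6g differed by 0.29 ± 0.18 (SE), with overlapping groups. S100a9, the brightest of the list, differed by -0.002 ± 0.22 and Mpo by -0.02 ± 0.09 (SE), so there was no list-wide rise. Balb/cBy lay wholly below Balb/c in the lymphocyte markers Cd79a and Ms4a1 (28.6%, beside 3.53%) and in the endothelial marker Kdr (16.7%). Kdr differed by -0.23 ± 0.13 (SE) and was the only endothelial marker with a lower mean. The other 5 of the 6 had a higher mean in Balb/cBy (83.3%, beside 49% of all probe sets), with a list median of 0.07. The means of S100a8, Retnlg, Cd79a and Ms4a1 were under the olfactory receptor level. Summed linear signals of the macrophage list ran from 6459 to 8253 in Balb/cBy and from 5029 to 8181 in Balb/c, and those of the stellate list from 8486 to 10832 in Balb/cBy and from 7038 to 8840 in Balb/c. The part of these cell types in the Glo1 and Btbd9 values was not tested. In bulk tissue, fewer cells of a type and less RNA per cell cannot be told apart.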

How the data were processed

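Liver RNA of 6 mice was measured, 1 array per mouse, from 500 ng of RNA per the labels' protocols. The deposited table holds log2 values that the authors made with RMA, per the submitters' processing notes, with 1 value for each probe set on an array. Software and genome build are not given in the sources used here. Signals run from 3.31 to 14.84, with array medians of 7.98 to 8.03. The number of arrays limits the precision. Of 41345 probe sets, 23521 have 1 symbol, covering 22180 genes, and these were tested; 1814 have several symbols and 16010 are unlisted.

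Groups follow the sample titles. Each tested probe set was fitted with limma 3.58.1 in R 4.3.3 on the substrain alone, and the two-sided p-values were adjusted by Benjamini-Hochberg across the 23521. Differences are Balb/cBy minus Balb/c, with moderated errors. A gene with several probe sets is given by the one with the highest mean. The fit was tested on simulated data. The members and lists were chosen with earlier results of these data known, and the olfactory receptor level was added after the data were seen. Genes named are the members, the 5 nearest neighbours on each side of Glo1, 2 further neighbours, up to 4 genes per pathway list by smallest p, the 5 genes most like Glo1 and the lowest and highest marker of each list. Acads, Gm6402, 1700097N02Rik, Cmtr1 and the other named markers were added after values were seen. The titles label the mice as biological replicates. RefSeq's gene table of GRCm38.p6 gave gene order and names. Alternatives were a mean trend with robust moderation, array weights, a replicate block, repeated quantile normalization, median centring, brighter probe sets, every probe set, arrays left out and averaged probe sets.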

Additional observations from a re-analysis of the deposited data

How the results depend on the processing

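The differences of Glo1 and Btbd9 kept their sign in each of the 15 settings, from 0.59 to 1.02 for Glo1 and from 0.55 to 0.82 for Btbd9. With 1 array left out at a time they ran from 0.59, without Balb/c replicate 2, to 1.01, without Balb/c replicate 3, for Glo1, and from 0.55 to 0.77 for Btbd9. Zfand3 ran from 0.05, without Balb/cBy replicate 2, to 0.22, without both arrays of lowest weight, and was 0.060 without Balb/c replicate 2 and 0.19 without Balb/cBy replicate 1. Park7 ran from 0.09 to 0.31, its value without Balb/c replicate 1, and was 0.13 without Balb/c replicate 2. Hagh ran from -0.08 to 0.07 and changed sign in 4 settings. Deviations from the group means of same-numbered arrays correlated at -0.32, -0.19 and -0.23 across probe sets. Those of differently numbered arrays correlated at 0.007 to 0.22. Deviations from a mean of 3 arrays are bound to each other, so these values cannot show whether the replicate numbers mark a pairing. With the replicate block the differences are by construction those given above, and the number of called probe sets stayed at 0. Array weights in limma called 31 probe sets, 29 higher and 2 lower, and 16 were called without Balb/c replicate 3 and Balb/cBy replicate 1, the arrays of lowest weight. Leaving out 1 array gave 0 to 4 calls, 2 without Balb/c replicate 3 and 4 without Balb/cBy replicate 1. The other settings gave 0. None of the neighbour or pathway genes was called in any of these settings. Calls of the member genes are not given for any setting, since these genes were chosen on this comparison. Of 125 values of named neighbours under the alternatives, 7 changed sign, and of 226 values of named pathway genes, 3. By Spearman correlation, 7 other genes ranked the arrays exactly as Glo1 did, and 0 of the 5 named as most like it by Pearson's r were among them. With 3 arrays per group, small differences are not resolved, and RMA pulls dim signals together.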
